A study of Homo sapiens with 12 samples.

Results

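HCT116 is a human colorectal carcinoma line that grows as an epithelial sheet, and the cells studied here are a derivative, HCT116 TIM-mAID, in which genome editing placed a mini-auxin-inducible degron on TIMELESS. The series holds 12 poly(A) RNA libraries in 4 groups of 3, all taken at 40 h: 5-Ph-IAA (the auxin analogue that triggers the degron), ATRi (ceralasertib, an inhibitor of the ATR kinase), 5-Ph-IAA with ATRi, and the vehicle DMSO. The present account is of the 3 DMSO libraries, chosen by their titles, and describes which genes this line transcribes in the absence of either compound and which it does not. No treatment comparison is made, and the other groups enter once, where the value of 1 gene in 1 DMSO library is set beside the rest of the series. The genotype label gives a wild-type background with the degron knock-in, and the treatment label writes the vehicle as 1 µM DMSO. All groups carry the knock-in, so no parental cell is described, and the labels do not say whether the line is 1 clone. The 3 libraries are called biological replicates in the design text, from sets 1, 2 and 3. Values of a gene are given in the order DMSO 1, DMSO 2 and DMSO 3, and a mean is followed by its SD over these libraries (n = 3).

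The colonic epithelium is renewed from stem cells at the base of the crypt, where Wnt signalling through beta-catenin and TCF7L2 keeps cells dividing, and daughter cells become absorptive colonocytes, mucus-making goblet cells or hormone-making enteroendocrine cells. The homeobox factors CDX1 and CDX2 and the nuclear receptors HNF4A and HNF4G are known for switching on the intestinal genes of those daughters. HCT116 is known as a poorly differentiated, mismatch-repair-deficient line with an activating mutation in beta-catenin.

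Estimated counts summed to 31186192, 29924304 and 34214972. They were rounded, scaled by TMM and given as counts-per-million values (CPM). A gene was called expressed at 1 CPM or more in all 3 libraries, which takes 32.3, 27.9 and 35.5 counts in the libraries in that order, and silent under 0.1 CPM in all 3, which is close to the 3-count floor of 0.0930, 0.108 and 0.0845 CPM. Anything between was called low. A silent call rests on at most 3 counts in a library and says that a transcript was not measurable at this depth in a poly(A) library, not that it is absent. CPM does not correct for length, so a range or order of different genes in CPM also depends on transcript length. Where stated, genes are compared on a per-length scale, in counts per kilobase of the longest annotated transcript, scaled to the same total in each library.

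The 3 libraries were not alike, and DMSO 2 lay farthest from the rest by the spread of single genes. Transcripts of the mitochondrial genome took 7.85%, 14.9% and 6.63% of the counts, so that DMSO 2 carried the highest share, and ribosomal protein transcripts took 8.11%, 9.37% and 6.74%. Among the 10331 genes with a mean of at least 10 CPM, 1421 differed more than 2-fold between their highest and lowest library, and DMSO 2 and DMSO 3 were the extremes of nearly all. DMSO 2 was highest in 630 and lowest in 788 of these, DMSO 3 highest in 780 and lowest in 620, and DMSO 1 highest in 11 and lowest in 13. Over all 10331 genes DMSO 2 was lowest in 5241 and highest in 4005, and DMSO 3 highest in 5005. A gene that is lowest or highest in DMSO 2 is therefore common and not particular to the genes named below. With DMSO 2 left out the median biological coefficient of variation, edgeR's measure of the relative spread between libraries, was 0.14, against 0.24 without DMSO 3 and 0.34 without DMSO 1. With DMSO 2 left out, 13948 genes were expressed instead of 13739, and 41937 instead of 40444 were silent. Without DMSO 3 the counts were 14085 and 40894, and without DMSO 1 they were 13772 and 40934. Both calls are easier to meet with fewer libraries, and the expressed count rose most without DMSO 3.

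Of 62700 annotated genes, 13739 (21.9%) were expressed, 8517 were low and 40444 (64.5%) were silent, 30440 of them without a count in any library. The 19831 protein-coding genes supplied 95.7% of the counts: 12261 (61.8%) were expressed and 4841 (24.4%) were silent. These shares are the background for each family and list below, unless another is given. Of 14711 long noncoding genes 889 (6.04%) were expressed, and of 15151 pseudogenes 225 (1.49%). Few protein-coding genes lay close to the threshold: 89 had their lowest library between 1 and 1.1 CPM, and 60 between 0.9 and 1 CPM. Over all genes, 14934 were expressed at a threshold of 0.5 CPM and 12657 at 2 CPM. The median level of the expressed protein-coding genes was 32.4 CPM, and 89 of them exceeded 1000 CPM.

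The most abundant transcripts belonged to respiration, protein synthesis, glycolysis and the cytoskeleton. MT-CO1, a subunit of cytochrome c oxidase encoded in mitochondria, led with 18757, 36739.6 and 15721 CPM, and all 13 messenger RNAs of the mitochondrial genome were expressed, from 106 ± 19.3 CPM for MT-ND6 upward. EEF1A1 (ENSG00000156508.19), which delivers aminoacyl-tRNA to the ribosome, was the highest nuclear gene on both scales and had 14579, 16016 and 13231 CPM. Its libraries lay close together, whereas the mitochondrial messages were highest in DMSO 2 in 13 of 13 cases. Of the 10331 genes with a mean of at least 10 CPM 4005 were highest there. GAPDH, the glycolytic dehydrogenase, had 4493, 4845 and 4412 CPM, and ACTG1, cytoplasmic gamma-actin, 3014, 3125 and 3227 CPM. EZR, which links actin to the membrane of microvilli, reached 3110.1 ± 136 CPM, and HMGA1, an architectural chromatin protein, 2278 ± 176 CPM. Per length EEF1A1 stood at 7760.1 ± 593, GAPDH at 5792 ± 631 and the actin-sequestering TMSB10 at 5686 ± 1139. The iron store FTH1 (4457 ± 674) and the calcium-binding S100A6 (4008 ± 1843) followed in the same range. Of 86 cytosolic ribosomal protein genes 83 were expressed, and the silent pair RPL10L and RPL39L are known as testis copies. All 8 subunits of the CCT chaperonin, which folds actin and tubulin, were expressed, from 329 ± 116 CPM for CCT4 to 642 ± 159 CPM for CCT3. Of 48 proteasome subunits 45 were expressed, and the silent PSMA8 and PSMB11 are known from testis and thymus.

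The sequence just upstream of the transcription start differed between expressed and silent genes. Many mammalian promoters lie in CpG islands, stretches where the dinucleotide CG is kept, while promoters of tissue-restricted genes are often CG-poor and more often carry a TATA box. RefSeq promoter sequences on GRCh38.p14 were matched by symbol for 19096 of 61228 distinct symbols, and the 250 bases upstream of the most upstream start were read. Windows with an observed-to-expected CG ratio of at least 0.6 and at least 50% G and C were called CpG-rich. They made up 78% of the 10420 expressed genes' windows (95% Wilson interval 77.2% to 78.8%), 42.3% of the 2784 low ones, 22% of the 5892 silent ones (21% to 23.1%) and 55.5% of all. The median number of CG dinucleotides per window was 21, 10 and 4 in expressed, low and silent genes. Among expressed protein-coding genes the CpG-rich share was 63.5% at a mean of 1 to 10 CPM, 80.9% at 10 to 100 CPM and 84.8% above 100 CPM. These intervals cover counting only, and neighbouring family members share sequence.

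3 motifs were searched on both strands of the same windows. TATAAA, the core of the TATA box, was present in 5.06% of expressed, 11.1% of low and 17.2% of silent genes' windows, against 9.70% of all windows. CCGCCC, the core of the GC box, was present in 68.3%, 44.6% and 25.3%, against 51.6% of all. CCAAT was present in 35.5%, 31.1% and 33.1%, against 34.1% of all, and so differed little between classes. CCGCCC holds a CG, so its share is not independent of the CpG measure. A match says only that the letters occur.

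The windows of 10 genes are printed to show these classes, each 5′ to 3′ on the gene's strand, in lower case with every CG in capitals. EEF1A1 is the expressed nuclear gene of the highest CPM, with 20 CG in its window at chr6:73521033-73521282, minus strand. PGK1 and PGK2 encode the X-linked and the autosomal, testis-restricted phosphoglycerate kinase (chrX:78103998-78104247, plus strand, and chr6:49787286-49787535, minus strand), and PDHA1 and PDHA2 are the same kind of pair for pyruvate dehydrogenase (chrX:19343677-19343926 and chr4:95839843-95840092, both plus strand). LDHC, the testis lactate dehydrogenase (chr11:18412068-18412317, plus strand), and SLFN11, known for sensitising cells to DNA damage (chr17:35373622-35373871, minus strand), were silent although CpG-rich. CLDN4, a tight-junction claudin (chr7:73830746-73830995, plus strand), was expressed although CpG-poor. CEACAM5, which encodes carcinoembryonic antigen (chr19:41708376-41708625, plus strand), and FABP1, an enterocyte fatty-acid carrier (chr2:88128063-88128312, minus strand), were silent and CpG-poor.
EEF1A1: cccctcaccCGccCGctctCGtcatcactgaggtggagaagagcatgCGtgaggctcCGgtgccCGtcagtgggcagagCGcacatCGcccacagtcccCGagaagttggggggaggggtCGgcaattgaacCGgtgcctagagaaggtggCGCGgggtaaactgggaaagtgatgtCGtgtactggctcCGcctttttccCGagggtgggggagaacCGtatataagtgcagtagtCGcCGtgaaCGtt
PGK1: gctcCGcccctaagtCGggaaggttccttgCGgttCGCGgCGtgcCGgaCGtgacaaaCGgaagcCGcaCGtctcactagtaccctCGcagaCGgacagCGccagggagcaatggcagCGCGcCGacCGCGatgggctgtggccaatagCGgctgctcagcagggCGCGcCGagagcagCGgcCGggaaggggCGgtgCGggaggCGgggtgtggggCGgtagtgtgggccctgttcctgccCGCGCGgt
PGK2: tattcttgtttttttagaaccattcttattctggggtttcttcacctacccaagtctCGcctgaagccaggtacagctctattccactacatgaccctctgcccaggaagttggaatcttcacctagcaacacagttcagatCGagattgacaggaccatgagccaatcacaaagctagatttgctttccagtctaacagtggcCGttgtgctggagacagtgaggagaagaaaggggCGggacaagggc
PDHA1: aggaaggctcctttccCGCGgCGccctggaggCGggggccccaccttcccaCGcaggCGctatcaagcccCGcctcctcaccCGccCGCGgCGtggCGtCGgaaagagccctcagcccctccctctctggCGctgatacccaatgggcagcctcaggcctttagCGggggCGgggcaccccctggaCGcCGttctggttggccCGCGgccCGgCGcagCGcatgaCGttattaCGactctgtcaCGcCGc
PDHA2: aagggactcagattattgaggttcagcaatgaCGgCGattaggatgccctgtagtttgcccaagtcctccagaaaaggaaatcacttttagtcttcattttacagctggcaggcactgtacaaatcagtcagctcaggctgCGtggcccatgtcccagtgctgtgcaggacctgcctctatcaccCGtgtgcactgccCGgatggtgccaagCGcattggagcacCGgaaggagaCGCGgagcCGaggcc
LDHC: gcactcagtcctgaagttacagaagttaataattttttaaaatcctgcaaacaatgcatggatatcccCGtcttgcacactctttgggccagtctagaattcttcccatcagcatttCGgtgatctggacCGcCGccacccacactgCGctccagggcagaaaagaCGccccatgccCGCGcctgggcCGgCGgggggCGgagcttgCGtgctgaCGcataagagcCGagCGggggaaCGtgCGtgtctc
SLFN11: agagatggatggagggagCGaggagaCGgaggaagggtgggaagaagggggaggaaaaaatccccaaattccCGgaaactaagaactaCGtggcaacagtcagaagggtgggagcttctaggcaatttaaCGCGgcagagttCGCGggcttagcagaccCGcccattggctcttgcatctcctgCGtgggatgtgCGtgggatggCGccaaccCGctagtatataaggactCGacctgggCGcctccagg
CLDN4: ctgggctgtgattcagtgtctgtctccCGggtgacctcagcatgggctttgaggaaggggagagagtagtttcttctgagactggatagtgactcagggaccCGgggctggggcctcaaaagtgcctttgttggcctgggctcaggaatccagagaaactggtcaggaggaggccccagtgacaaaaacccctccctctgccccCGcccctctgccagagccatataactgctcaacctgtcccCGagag
CEACAM5: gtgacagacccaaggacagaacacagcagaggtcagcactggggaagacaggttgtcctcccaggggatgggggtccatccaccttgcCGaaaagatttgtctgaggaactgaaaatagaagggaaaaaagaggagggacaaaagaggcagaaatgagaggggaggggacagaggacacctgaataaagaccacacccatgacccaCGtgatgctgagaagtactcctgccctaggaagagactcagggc
FABP1: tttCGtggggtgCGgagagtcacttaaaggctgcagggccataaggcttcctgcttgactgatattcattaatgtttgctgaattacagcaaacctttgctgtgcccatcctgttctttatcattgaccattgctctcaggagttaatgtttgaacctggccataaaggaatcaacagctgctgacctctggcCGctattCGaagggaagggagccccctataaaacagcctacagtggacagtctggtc

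The paralogue pairs differed in CG number and in level together. PGK1 had 439, 253 and 526 CPM and 32 CG, while PGK2 had 2, 4 and 1 counts and 4 CG. PDHA1 had 104, 128 and 95.1 CPM and 27 CG, while PDHA2 had no count and 10 CG. LDHC, with 17 CG, was counted once in the 3 libraries, as was SLFN11, with 15. CLDN4 reached 196, 146 and 194 CPM with 4 CG. CEACAM5, with 2 CG, and FABP1, with 4, had no count in any library.

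The cells carried the transcripts of a simple epithelium at high level. All 5 genes used to check for epithelium were expressed. KRT8, KRT18 and KRT19 encode the keratins of simple epithelia. KRT8 had 1849.5, 2237 and 1770.3 CPM, KRT18 had 911, 1597 and 754 CPM and KRT19 had 1548, 1994 and 1283 CPM. EPCAM, an epithelial surface glycoprotein, had 450.1, 559 and 363 CPM, and CDH1, which encodes E-cadherin, 83.5, 96.1 and 79.97 CPM. DMSO 2 was the highest library for each of these 5, and their lowest value was the 79.97 CPM of CDH1 in DMSO 3. Of 40 genes of epithelium and junctions, 38 (95%) were expressed and 2 were low, against 61.8% of all protein-coding genes. Their libraries stayed near one another, with a median coefficient of variation (CV, SD over mean) of 0.13.

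**Figure D1:**
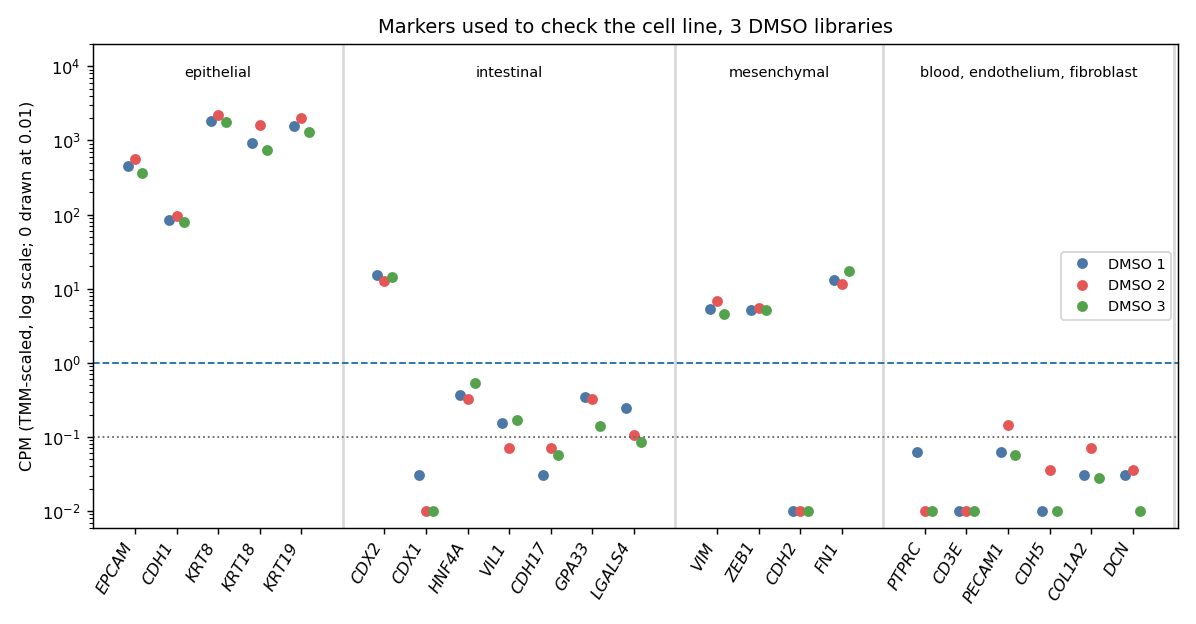
CPM (log scale) of 22 marker genes in DMSO 1, 2 and 3, one point per library, with lines at 1 CPM (dashed) and 0.1 CPM (dotted) and 0 drawn at 0.01. The 5 epithelial genes lie above the dashed line in every library, while of the 7 intestinal ones CDX2 alone does, at 15.3, 12.8 and 14.6 CPM. For fibroblasts the silent COL1A2 and DCN are drawn, while 5 of 16 fibroblast and smooth muscle markers were expressed. Also not drawn are expressed members of the blood list (5 of 34, RUNX3 among them) and of the endothelial list (2 of 16, EGFL7 among them).

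On the per-length scale KRT19 was the highest keratin at 2693 ± 196, above KRT8 at 1603 ± 59.6 and KRT18 at 1188 ± 282. KRT19 exceeded both others in every library, whereas KRT8 and KRT18 nearly met in DMSO 2, at 1537 and 1504. Of 55 keratins 10 (18.2%) were expressed, 12 low and 33 (60%) silent. Of all protein-coding genes 61.8% were expressed and 24.4% silent. KRT15, KRT10 and KRT23 were also expressed, at 65.3 ± 18.6, 33.8 ± 9.98 and 22.4 ± 7.08 CPM. KRT20, the keratin of differentiated colonocytes, was just above the threshold at 2.02, 1.43 and 1.35 CPM. KRT7, its counterpart in many non-intestinal glands, was low at 0.775, 3.803 and 0.704 CPM, with DMSO 2 the highest. The basal and squamous keratins KRT5, KRT14, KRT6A, KRT1 and KRT4 were silent. Of 94 keratin-associated proteins of hair KRTAP2-3 alone was expressed (2.82, 5.02 and 1.86 CPM), and 84 were silent.

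Junction genes were expressed in selected members of each family. Among 24 claudins, the strands of tight junctions, 6 (25%) were expressed and 13 silent, against 61.8% of all protein-coding genes expressed. CLDN7 had 193, 252 and 156 CPM, and CLDN12, CLDN3, CLDN15 and CLDN23 were expressed beside CLDN4. Per length, CLDN7 (242 ± 22.4) lay above CLDN4 (104 ± 30.3) in every library. CLDN18 of stomach and CLDN5 of endothelium were silent, and CLDN1 and CLDN2 were low. Of 30 classical and desmosomal cadherins 8 (26.7%) were expressed and 13 silent. Desmosomal DSG2 had 273, 182 and 381 CPM and placental CDH3 202, 213 and 187 CPM, while CDH2, which encodes N-cadherin, had no count and CDH17, the intestinal cadherin, had 1, 2 and 2 counts. The clustered protocadherins, known from neurons, had 3 of 54 expressed, among them PCDHAC2 at 12.4, 5.02 and 13.3 CPM.

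Some intestinal regulators and few intestinal products were expressed. CDX2 (ENSG00000165556.10) was expressed at 15.3, 12.8 and 14.6 CPM, with little spread. Its paralogue CDX1 had 1 count in all, HNF4A was low at 0.372, 0.323 and 0.535 CPM, and HNF4G was expressed at 5.98, 3.16 and 8.25 CPM. Of the 7 genes used to check for intestine, only CDX2 was expressed. The structural gene VIL1 (0.155, 0.0717 and 0.169 CPM), the surface antigen GPA33 (0.341, 0.323 and 0.141 CPM) and the lectin gene LGALS4 (0.248, 0.108 and 0.0845 CPM) were low, and CDH17 and CDX1 were silent. By these markers the cells were epithelial with CDX2 transcript and without most transcripts of a differentiated intestinal cell. In a bulk sample fewer cells of a type and less RNA per cell cannot be told apart, and that holds for every low marker here.

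Of 26 intestinal transcription factors 14 (53.8%) were expressed, 8 were low and 4 silent, against 61.8% of all protein-coding genes expressed. TCF7L2, the Wnt effector, had 250.3, 237 and 209 CPM. Of the epithelial ETS factors EHF had 167, 155 and 216 CPM and ELF3 131, 165 and 121 CPM. SOX9, a factor of crypt progenitors, had 189, 131 and 155 CPM, and KLF5, which drives crypt proliferation, 48.2, 70.3 and 53.1 CPM. GATA6 was expressed at 7.84, 6.601 and 7.43 CPM, whereas GATA4, GATA5 and ISX, factors of the small bowel, were silent. ATOH1, the switch for secretory cells, was low at 0.217, 0 and 0.225 CPM.

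Products of mature lineages were largely missing. Each list here is to be read against the 61.8% expressed and 24.4% silent of all protein-coding genes. Of 32 colonocyte and enterocyte markers 3 (9.38%) were expressed and 19 (59.4%) silent. The expressed ones included the carbonic anhydrase gene CA2 at 39.1, 14.8 and 47.5 CPM, lowest in DMSO 2, while CA1 and CA4 were silent. CEACAM5, CEACAM6, FABP1 and the chloride exchanger SLC26A3 had no count in any library, which with 3 counts as the limit allows up to 0.0930, 0.108 and 0.0845 CPM. Goblet cell markers had 2 of 15 (13.3%) expressed and 8 (53.3%) silent. The mucin gene MUC2 was low at 0.217, 0.538 and 0.141 CPM and TFF3 had no count. MUC3A, a membrane mucin gene with near-identical copies, was expressed at 37.1, 48.6 and 33.4 CPM. Enteroendocrine markers had 3 of 19 expressed, with the granin SCG2 at 47.5, 49.4 and 38.5 CPM but CHGA, NEUROD1 and NEUROG3 silent. Tuft cell markers had 5 of 14 (35.7%) expressed, such as IL17RB at 17.6, 15.1 and 20.7 CPM, while their regulator POU2F3 was low at 0.341, 0.538 and 0.451 CPM. Paneth cell markers had 1 of 10 expressed, MMP7 at 5.705, 5.38 and 3.74 CPM, and DEFA5 and DEFA6 were silent.

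**Figure D2:**
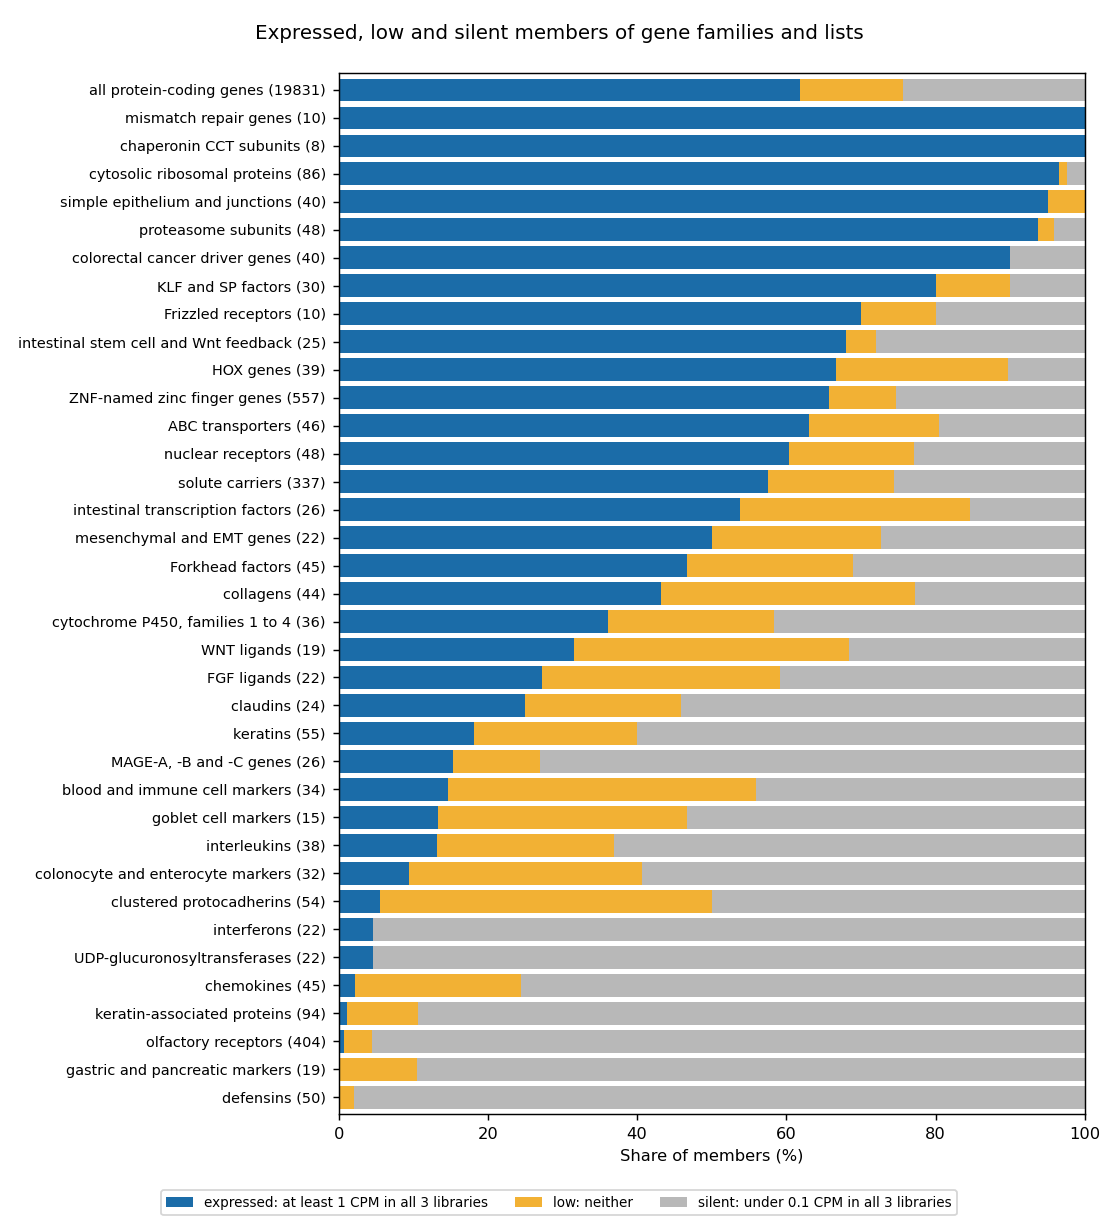
Share of members (%, horizontal axis) called expressed (blue), low (yellow) or silent (grey) in 36 gene families and lists, with the number of members in brackets and all protein-coding genes on top. Shares of expressed members run from 100% for the CCT chaperonin and mismatch repair genes to 0% for defensins and for gastric and pancreatic markers, against 61.8% of all protein-coding genes.

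Of 25 stem cell and Wnt feedback genes 17 (68.0%) were expressed and 7 (28%) silent, shares near the 61.8% and 24.4% of all protein-coding genes. LGR5, the receptor that marks crypt-base stem cells, had 2 counts, all in DMSO 1, and ASCL2 and OLFM4, known from crypt-base cells, had none. The Wnt inhibitor APCDD1, HOPX and the Wnt effector LEF1 also had no count. Other Wnt feedback genes were expressed: RNF43, a ligase that removes Frizzled receptors, had 138, 100.2 and 157 CPM, its relative ZNRF3 17.1, 12.5 and 23.1 CPM, AXIN2 8.68, 3.05 and 11.01 CPM and NOTUM 10.4, 11.6 and 15.2 CPM. RNF43, ZNRF3 and AXIN2 were lowest in DMSO 2. The surface marker CD44 had 789, 753 and 685 CPM, and PROM1, which encodes CD133, 30.7, 25.5 and 34.3 CPM. TERT, which encodes the telomerase protein, was expressed at 4.56, 3.803 and 4.22 CPM. Its RNA partner TERC is not polyadenylated and its silence in a poly(A) library is no measure of it.

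Among the 19 WNT ligands 6 (31.6%) were expressed, 7 low and 6 silent, against 61.8% of all protein-coding genes expressed. WNT16 had 120.5, 62.3 and 157 CPM. On the per-length scale WNT16 stood at 89.5 ± 47.6, and the next, WNT10B, at 6.93 ± 1.94, and WNT16 was the higher in every library. WNT5A, WNT1 and WNT2 were silent. Of 10 Frizzled receptors 7 (70%) were expressed, near the share of all protein-coding genes, FZD6 among them at 66.97, 53.95 and 74.6 CPM. Among 22 FGF ligands 6 were expressed, with FGF19, an intestinal hormone that acts on liver, at 43.9, 94.03 and 39.5 CPM. Of 14 Eph receptors 8 (57.1%) were expressed, near the share of all protein-coding genes. EPHA2 had 149, 199 and 161 CPM, and of 8 ephrins 7 were expressed.

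Known colorectal cancer genes were nearly all transcribed. Of 40 such genes 36 (90.0%) were expressed and 4 (10%) silent, against 61.8% and 24.4% of all protein-coding genes. The silent ones were ERBB4, CCND2, MYCN and TERC, and TERC, which is not polyadenylated, is not measured here. CTNNB1, which encodes beta-catenin, had 356, 149 and 411 CPM, MYC 205, 90.1 and 235 CPM and CCND1, the cyclin D1 gene, 344, 230.0 and 457 CPM. All 3 genes were lowest in DMSO 2. The receptor gene EGFR had 104, 89.4 and 132 CPM. Paralogues were used unequally: CCND1 stood at 196 ± 89.2 per length and CCND3 at 22.1 ± 8.74, while CCND2 had 4 counts in all. MYC stood at 186 ± 99.2 and MYCL at 5.38 ± 0.315, while MYCN had no count.

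All 10 mismatch repair genes had transcripts. PMS2 had 47.9, 47.5 and 43.7 CPM and PMS1 49.6, 47.9 and 46.1 CPM, with little spread. MSH6, a subunit of the mismatch sensor, had 68.4, 31.03 and 83.6 CPM, lowest in DMSO 2. MSH3 was at 3.63, 5.35 and 3.86 CPM. Per length MSH3 (2.44 ± 0.188) lay under MSH6 (20.3 ± 11.1) in every library. PMS2 has near-identical pseudogenes, so its level is uncertain.

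TIMELESS, which carries the degron, had 52.4, 31.1 and 67.4 CPM. The degron acts on the protein, so this RNA level does not check the knock-in. ATR, the kinase that ceralasertib inhibits, had 59.1, 57.6 and 55.98 CPM, and of the fork partners CLSPN had 41.9, 21.7 and 50.8 CPM and TIPIN 17.7, 11.9 and 20.3 CPM. ATR was even across libraries, and TIMELESS, CLSPN and TIPIN were lowest in DMSO 2.

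HOX genes, which record position along the body axis, were transcribed throughout the HOXA cluster and in parts of the others. Of 39 genes 26 (66.7%) were expressed, 9 low and 4 silent, so the expressed share was near the 61.8% of all protein-coding genes. All 11 HOXA genes were expressed, and HOXA9 had 162, 133 and 172 CPM. On the per-length scale HOXA9 (182 ± 49.4) exceeded HOXB7 (55.2 ± 8.82), the next, in every library. HOXB3 to HOXB9 were expressed between 20.2 ± 2.63 CPM for HOXB4 and 42.1 ± 17.4 CPM for HOXB9. HOXB13, a gene of the hindgut and prostate, was expressed at 13.5, 11.4 and 14.5 CPM, and HOXB1 was silent. Of the HOXC genes HOXC6 had 5.74, 13.3 and 4.84 CPM, highest in DMSO 2. In the HOXD cluster HOXD8 alone was expressed, at 11.2, 16.2 and 7.72 CPM, and HOXD13 was silent.

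**Figure D3:**
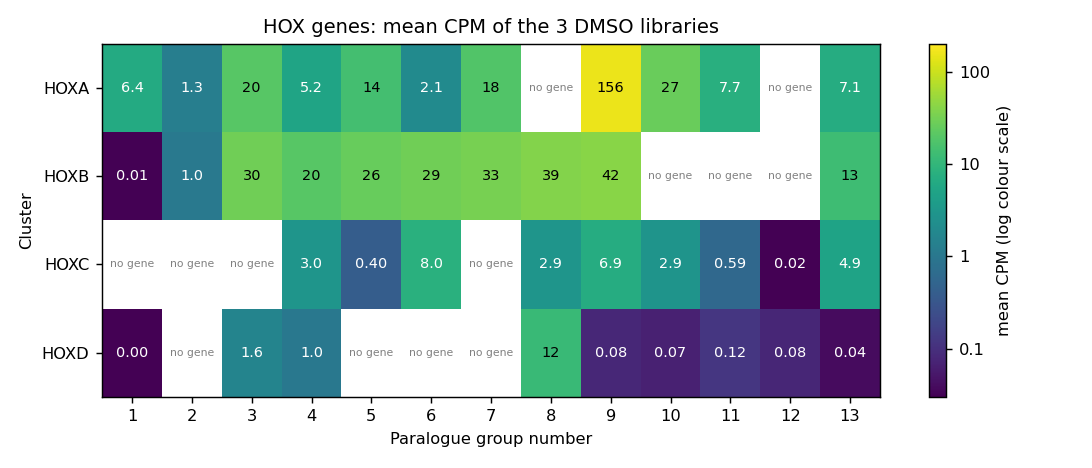
Mean CPM of the 39 HOX genes over the 3 DMSO libraries, by cluster (rows) and paralogue group (columns), on a logarithmic colour scale with the value in each cell. All HOXA cells and those of HOXB3 to HOXB9 lie above 1 CPM, with HOXA9 highest at 156 ± 19.9 CPM, whereas in the HOXD row HOXD8 alone was called expressed.

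Other transcription factor families were used in part. Of 30 KLF and SP genes 24 were expressed, KLF6 among them at 126, 178 and 128 CPM. Of 20 SOX genes 6 (30%) were expressed. SOX9 was the highest of them per length in the mean (97.02 ± 28.3), while the pluripotency factor SOX2 was low at 0.0620, 0.0717 and 0.169 CPM. Of 45 Forkhead genes 21 were expressed, with FOXK2 at 113, 114 and 123 CPM and the cell cycle factor FOXM1 at 54.6, 34.2 and 77.1 CPM, whereas the endoderm factors FOXA1 and FOXA2 were low. Of 557 genes named ZNF 366 (65.7%) were expressed, a share near the 61.8% of all protein-coding genes. Of 48 nuclear receptors 29 (60.4%) were expressed, also near that share. Of the clock repressors NR1D1 had 97.2, 168 and 66.8 CPM and NR1D2 98.00, 116 and 114 CPM, and the fat and colon receptor PPARG had 32.03, 38.2 and 31.6 CPM. The receptors for oestrogen (ESR1), progesterone (PGR) and bile acids (NR1H4) were silent.

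Mesenchymal genes were expressed in part. Of 22 genes 11 (50%) were expressed and 6 (27.3%) silent, shares not far from the 61.8% and 24.4% of all protein-coding genes. S100A4 had 200.2, 277 and 145 CPM and AXL, a receptor kinase, 70.9, 93.5 and 73.7 CPM. VIM, which encodes vimentin, was expressed at 5.24, 6.78 and 4.56 CPM, and ZEB1, a repressor of E-cadherin, at 5.12, 5.56 and 5.12 CPM. Per length VIM stood at 4.83 ± 0.229, against 1603 ± 59.6 for KRT8. CDH2, MMP2, PRRX1 and TWIST2 were silent. Of 44 collagens 19 (43.2%) were expressed, COL6A1 among them at 136, 219 and 129 CPM and COL6A2 at 137, 201 and 132 CPM. COL1A1 had 52.2, 108 and 34.8 CPM, while COL1A2, its partner in type I collagen, was silent. COL4A3, COL4A4 and COL4A5, the alpha chains of specialised basement membranes, were expressed, and COL4A2 was silent.

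Most markers of other cell types were low or silent, whereas 61.8% of all protein-coding genes were expressed and 24.4% silent. Of 34 blood and immune markers 5 (14.7%) were expressed and 15 (44.1%) silent, and their summed level was 52.1, 63.1 and 48.2 CPM. PTPRC (CD45), CD3E and CD4 were silent, and RUNX3, which had 27.9, 34.8 and 28.97 CPM, is also known in epithelium. No immunoglobulin segment of 330 and no T cell receptor segment of 220 was expressed. Endothelial markers, with a summed level of 63.4, 91.2 and 58.5 CPM, had 2 of 16 expressed, EGFL7 and ESAM, with CDH5 and TIE1 silent. EGFL7 alone had 54.8, 80.6 and 52.3 CPM. Fibroblast and smooth muscle markers, with a summed level of 78.7, 142 and 62.4 CPM, had 5 of 16 expressed, 3 low and 8 silent. DCN, LUM and PDGFRA were among the silent ones, while the collagen gene COL1A1 was expressed, as given above. Of 19 hepatocyte markers 2 were expressed, CPS1 at 46.4, 50.3 and 49.1 CPM and SERPINA1 at 6.23, 7.46 and 3.604 CPM, and ALB was low at 0.837, 1.901 and 0.197 CPM. Without DMSO 3, 5 hepatocyte markers were expressed. Of 19 gastric and pancreatic markers none was expressed and 17 were silent. Squamous markers had 3 of 14 expressed and a summed level of 237, 194 and 249.5 CPM, most of it from SFN at 206, 147 and 221 CPM, and TP63 and IVL were silent. Neuron and glia markers had 7 of 26 expressed and a summed level of 289, 267 and 330.5 CPM, with the tubulin TUBB3 at 133, 123 and 167 CPM and the synaptic vesicle sensor SYT1 at 69.5, 69.6 and 70.2 CPM, while RBFOX3, NEFM and SOX10 were silent. SYT1 differed by less than 1 CPM between its highest and lowest library. Markers of lung, breast, prostate, kidney and thyroid had 7 of 23 expressed, 6 low and 10 silent, with a summed level of 38.3, 42.2 and 32.04 CPM. Of the kidney and thyroid factors PAX2 was expressed at 9.33, 10.5 and 7.46 CPM and PAX8 at 7.19, 8.897 and 6.31 CPM, while UMOD of kidney was silent.

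Interferons and defensins were nearly all silent, and other immune mediators were low or silent in most members. Of 22 interferon genes IFNE alone was expressed, at 2.08, 4.52 and 1.07 CPM, and 21 were silent. Of 45 chemokines CXCL16 alone was expressed, at 36.1, 31.2 and 36.2 CPM, and 34 were silent. Without DMSO 1, or without DMSO 2, 2 chemokines were expressed. CXCL1, CXCL2, CXCL3 and CXCL8, neutrophil attractants, were low, each highest in DMSO 2, as in the 0.496, 3.19 and 0.760 CPM of CXCL2. Of 38 interleukins 5 were expressed, 9 low and 24 silent, and the epithelial alarm cytokine IL18 had 119, 148 and 95.4 CPM. Of 50 defensins none was expressed. MHC class II genes and their regulator had 3 of 12 expressed, 7 low and 2 silent, HLA-DMA at 9.27, 14.96 and 6.73 CPM, HLA-DMB at 5.798, 5.202 and 4.702 CPM and HLA-DRA at 1.77, 1.901 and 1.35 CPM. Their regulator CIITA was low at 0.124, 0.215 and 0.0845 CPM, whereas B2M of class I had 417, 476 and 358 CPM.

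Several genes of germ cells, embryo and globin loci were transcribed in this line. Of 26 MAGE-A, -B and -C genes, whose normal expression is in testis, 4 were expressed and 19 silent. MAGEB2 had 159, 150.0 and 158 CPM and MAGEA3 91.8, 82.4 and 92.3 CPM, both with little spread. MAGEA2 had 39.5, 53.5 and 36.6 CPM and its near-identical copy MAGEA2B 26.9, 27.9 and 32.2 CPM, a division that is uncertain. The same holds for MAGEA3 and its copy MAGEA6, at 0.0620, 0.0359 and 0.113 CPM. Of 35 other cancer-testis genes 7 were expressed. ATAD2, KIF2C, PBK and TTK among them are known in dividing cells, which leaves PRAME at 61.5, 60.7 and 57.5 CPM, SPA17 at 15.4, 15.6 and 14.2 CPM and TEX14. Of 20 pluripotency and oncofetal genes 5 were expressed, with the chromatin protein HMGA2 at 378, 275 and 406 CPM the RNA-binding IGF2BP2 at 192, 246 and 188 CPM and IGF2BP3 at 138, 83.2 and 158 CPM. IGF2BP1, NANOG and POU5F1 were low.

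HBE1, the embryonic epsilon-globin gene (GRCh38.p14 chromosome 11, 5268345 to 5269945), was expressed at 105, 129 and 90.6 CPM. Its neighbour HBG2, fetal gamma-globin, had 5.89, 8.72 and 4.59 CPM, and HBG1, nearly identical to HBG2, 0.124, 0.108 and 0.225 CPM. The adult HBB and HBD had 2 and 3 counts in all and were silent. On the other side of HBE1 lay the olfactory receptors with the highest per-length level of the 404 listed: OR51B5 had 80.5, 82.1 and 80.2 CPM and OR51B4 10.1, 6.03 and 13.3 CPM, and OR51B2 was low at 1.92, 0.538 and 3.38 CPM. OR51B5 spans 5340318 to 5505652 and overlaps other receptor genes, and the strand setting of the counting is not known, so its reads cannot be assigned with certainty. In all 3 olfactory receptors were expressed and 386 (95.5%) silent. The third was OR2A7 at 3.26, 4.02 and 3.74 CPM.

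Some silent genes lay in long runs along the chromosomes. Among 19110 RefSeq protein-coding genes with a row, 65 runs of 8 or more neighbours were silent throughout and held 922 genes, which is 20.3% of the 4553 silent genes among them, so most silent genes lay outside such runs. The longest run, from OR4B1 to APLNR on chromosome 11 (48216810 to 57237250), held 64 genes, most of them olfactory receptors. The run from RPTN to S100A7A on chromosome 1 (152153595 to 153423222) held 48 genes, most of them of the epidermal barrier, and that from GRIK1 to KRTAP19-8 on chromosome 21 (29536933 to 31038476) held 36 genes, mainly keratin-associated. A further run of 31 genes on chromosome 4, from TMPRSS11E to JCHAIN, held the UGT2 enzymes and the casein genes. Expressed genes formed 360 such runs, the longest of 33 genes from AK1 to LRRC8A on chromosome 9. By chromosome the expressed share was highest on 16 (72.3%) and 15 (71.8%) and lowest on 21 (49.5%) and X (46.9%).

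Of 62 metabolic enzymes and transporters that have paralogues 40 (64.5%) were expressed, 9 low and 13 silent, an expressed share near the 61.8% of all protein-coding genes. The silent ones included the liver form PKLR, the muscle forms CKM and COX6A2 and the testis form LDHC. Among glycolytic enzymes ENO1 had 1814, 1195 and 2113 CPM, PKM 1644, 1240.1 and 1876 CPM, LDHA 873, 515 and 1024 CPM and LDHB 1107, 709.6 and 1067 CPM. Each was lowest in DMSO 2. LDHB (1522 ± 533) stood above LDHA (819 ± 365) per length in every library. All 3 phosphofructokinase genes were expressed, with PFKP (189.8 ± 64.8) above PFKM (88.8 ± 29.3) and PFKL (57.6 ± 20.6) in each.

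Genes that handle drugs and foreign compounds were expressed in part. Of 38 genes 26 (68.4%) were expressed, a share near that of all protein-coding genes. NQO1, a quinone reductase, had 531, 519 and 486 CPM and GSTP1, a glutathione transferase, 367, 338 and 330.4 CPM. Of 22 genes grouped by name as UDP-glucuronosyltransferases 21 were silent, among them UGT1A1, which inactivates the irinotecan metabolite. UGT8 alone was expressed, at 45.2, 21.6 and 51.7 CPM. It makes a brain lipid and is a galactosyltransferase, not a glucuronosyltransferase. Of the export pumps ABCC2 had 145, 153 and 126 CPM and ABCC3 94.4, 184 and 49.5 CPM. ABCB1 had 7.35, 7.46 and 8.79 CPM and ABCG2 3.19, 1.79 and 3.89 CPM. Of 46 ABC transporters 29 (63.0%) and of 337 solute carriers 194 (57.6%) were expressed, both also near that share. Of the amino acid carriers SLC7A5 had 647, 1035 and 649 CPM and SLC38A2 984, 1192 and 1200.5 CPM. Of 36 cytochromes P450 of families 1 to 4, 13 were expressed, among them CYP2R1, a vitamin D hydroxylase, at 22.04, 49.4 and 18.98 CPM. CYP3A4 was silent.

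Long noncoding genes often overlap others, so their counts are less certain. MALAT1, a nuclear RNA, had 3609, 10929 and 1081 CPM, and NEAT1 1453, 2035 and 889.8 CPM, both highest in DMSO 2. Of 33 named long noncoding RNAs 25 (75.8%) were expressed, against 6.04% of all 14711 long noncoding genes, so the list does not represent that class. Among them were the snoRNA host GAS5 at 339, 689 and 248 CPM and SNHG1, another, at 306, 484 and 292 CPM. UCA1, known from bladder and colon cancer, had 107, 151 and 118 CPM. Of 31 imprinted genes 19 (61.3%) were expressed, a share near the 61.8% of all protein-coding genes. GNAS, a G protein subunit, had 693, 1125 and 608 CPM, and IGF2 24.6, 36.3 and 25.3 CPM, while H19, expressed from the other parental chromosome beside IGF2, was low at 0.837, 0.825 and 1.38 CPM. PEG3, ZIM2 and 5 genes of the imprinted region on chromosome 15 or beside DLK1 (SNRPN, SNURF, NDN, MAGEL2 and RTL1) were silent, with at most 1 count each in any library.

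The spread between libraries was uneven across genes. Over the 15855 genes kept by a count filter the median CV was 0.19, 1247 (7.87%) had a CV above 0.5, and the median biological coefficient of variation was 0.25. Without DMSO 2, 342 genes exceeded a CV of 0.5. Without DMSO 1, 2655 genes did, and without DMSO 3, 1128. The 30 replication and proliferation genes, a list added after the spread had been seen, were all expressed, and each lay below its own mean in DMSO 2 and above it in DMSO 3. Their sum was 3264, 1559 and 4495 CPM. Of the 10331 genes with a mean of at least 10 CPM, DMSO 2 was the lowest library in 5241 and DMSO 3 the highest in 5005. MCM4, a subunit of the replicative helicase, had 127, 32.1 and 238 CPM, PCNA, the sliding clamp, 206, 92.95 and 263 CPM and MKI67, the proliferation antigen, 383, 242 and 605 CPM.

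Stress genes, also a list added later, went in both directions. DDIT3, a transcription factor of the unfolded protein and integrated stress responses, had 50.3, 273 and 28.1 CPM, its partner in that response PPP1R15A 40.2, 181 and 31.4 CPM and the chaperone of the endoplasmic reticulum HSPA5 1115, 2194 and 1103 CPM, all highest in DMSO 2. The cytosolic chaperone HSPA8 had 920.4, 159 and 1445 CPM and was lowest there. In 16 common reference genes the median CV was 0.12: RPLP0 (2602, 2523 and 2492 CPM) was steady, whereas TFRC, the transferrin receptor, had 217, 83.8 and 359 CPM. The mitochondrial share moved with these gene groups across the libraries, and its part in them was not tested.

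**Figure D4:**
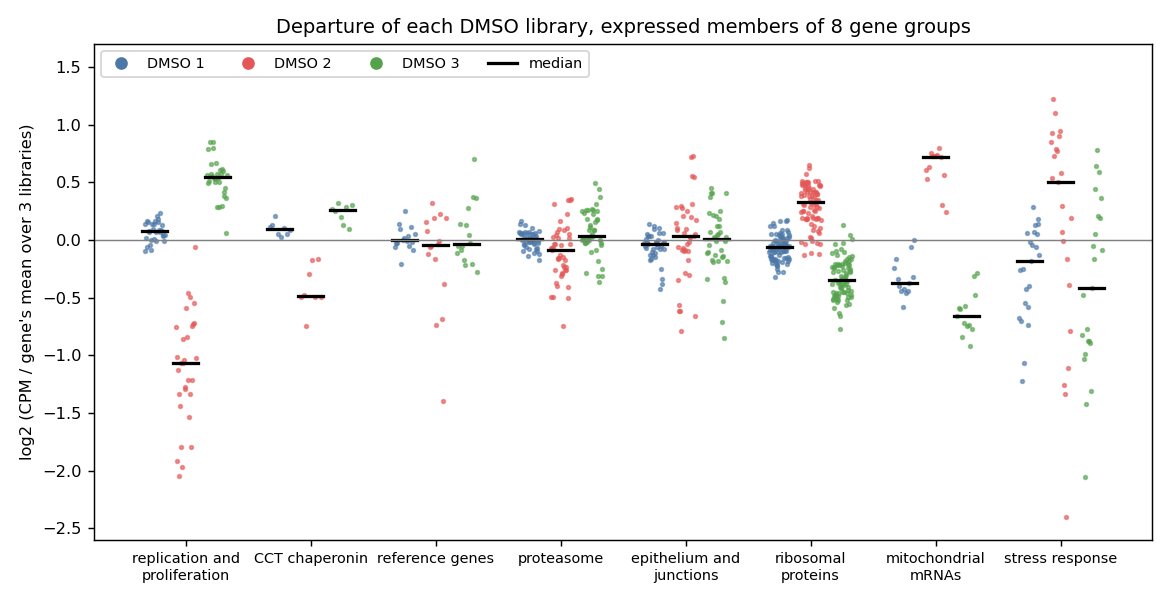
Log2 ratio of each library's CPM to the gene's mean over the 3 libraries, one point per expressed member of 8 gene groups, with the median as a bar. DMSO 2 and DMSO 3 depart in opposite directions, with medians of -1.07 and 0.55 for replication genes, -0.48 and 0.26 for the CCT chaperonin, 0.72 and -0.66 for mitochondrial messages, 0.33 and -0.35 for ribosomal proteins and 0.50 and -0.42 for stress genes, while reference genes centre near 0 in every library.

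Single genes departed in other ways. IGF2R (ENSG00000197081.16), which encodes the receptor that carries mannose 6-phosphate enzymes to lysosomes, had 5225, 226 and 127 CPM, the highest CV of any gene above 10 CPM (1.57). Its rounded count was 168539 in DMSO 1, against 6303 and 4498 in DMSO 2 and DMSO 3. By library total DMSO 1 held 5404 CPM and the 9 libraries of the other groups 112 to 356 CPM, so the value of DMSO 1 stood alone in the series. The mean of IGF2R is therefore not used as a level. LCN2, an iron-binding defence protein, had 3.26, 31.5 and 2.06 CPM and RBCK1, a ubiquitin ligase subunit, 210.2, 722 and 107 CPM, both highest in DMSO 2. CDRT4, which shares sequence with the readthrough gene TVP23C-CDRT4, had 22.3, 69.2 and 0 CPM and is uncertain for that reason. At the other end PDAP1 had 180.3, 181 and 180.4 CPM, CD81, a tetraspanin, 186, 185 and 187 CPM and HNRNPA1, a splicing factor, 1833, 1826 and 1841 CPM, each with a CV under 0.005. These were picked from the 10 lowest CVs among genes above 10 CPM, over 3 libraries. So close a match is therefore no measure of how steady a gene is.

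**Figure D5:**
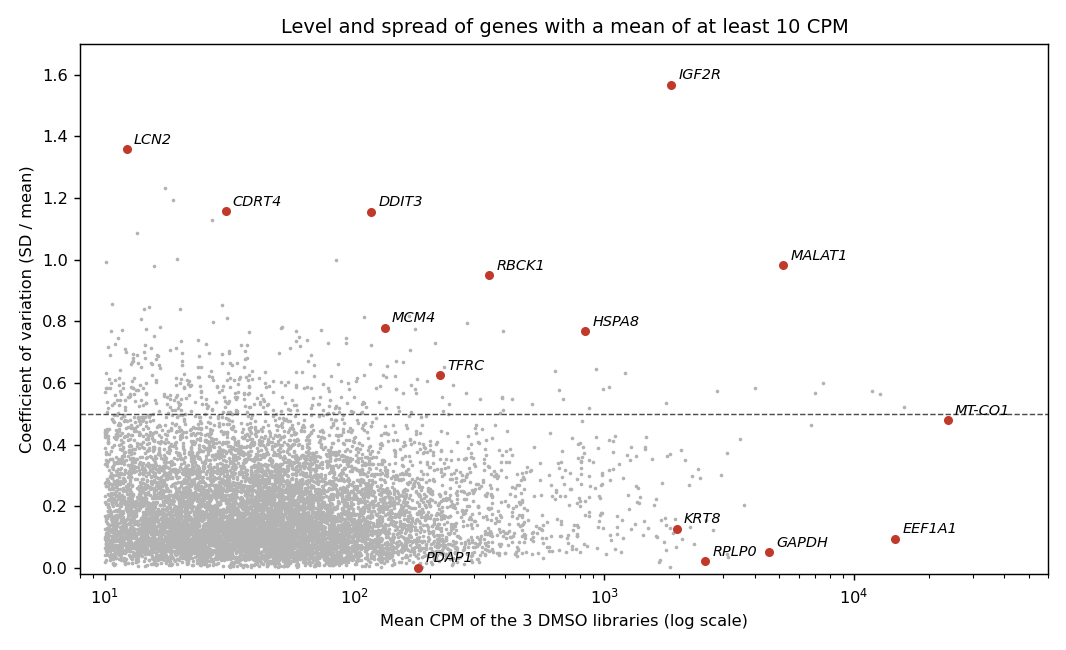
Coefficient of variation against mean CPM (log scale) of the genes with a mean of at least 10 CPM, one grey point per gene, with 15 genes named in red and a dashed line at 0.5. IGF2R has the highest CV (1.57), MALAT1 and DDIT3 lie near 1, and GAPDH, RPLP0 and EEF1A1 lie at or below 0.1.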

How the data were processed

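Poly(A) RNA of HCT116 TIM-mAID cells was sequenced from directional libraries, and the authors deposited 1 table of Salmon estimated counts per gene for all 12 libraries. Per the submitters' processing notes the tools included Salmon 1.10.1 for quantification and STAR 2.7.9a for alignment on GRCh38.p14, with Trim Galore 0.6.7 for trimming and SAMtools 1.17. Neither the annotation release nor the strand setting is given in the sources used here, so overlapping and antisense genes are uncertain.

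The 3 DMSO columns, of 29924304 to 34214972 counts, were rounded (6.99% of values lay more than 0.01 from a whole number) and scaled by TMM in edgeR 4.0.16 under R 4.3.3. Gene types and transcript lengths came from GENCODE 29, which matched 58207 of 62700 IDs. Rows of the same symbol were summed within lists. The spread was taken over genes kept by edgeR's filter on a minimum of 10 counts and a total of 15. With 1 condition no p-value was computed, and intervals cover counting error only. Where nothing says how the sets differ, the spread may be partly technical. The dispersion step was checked on simulated counts.

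The members, gene lists, families and marker genes were chosen with earlier results of these data known, so their counts are descriptions. Genes named were members of these lists, the 25 highest in CPM or per length, and, among genes with a mean of at least 10 CPM, the 15 of highest and 10 of lowest CV. The lists of replication, stress and reference genes were added after seeing the data, and their named genes were chosen after their values were seen. AND1, CCAT1, GSTT1, LINC00152 and LOR are not analysed here. Near-identical copies (MAGEA2 and MAGEA2B, MAGEA3 and MAGEA6, HBG1 and HBG2, MUC3A, PMS2) are uncertain. Alternatives covered normalization, thresholds, filters, length correction, promoter starts and leaving out each library.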

Additional observations from a re-analysis of the deposited data

How the results depend on the processing

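The number of expressed genes ranged from 12657 to 14934 over all settings tried, and no result changed direction. No paired analysis was possible because the libraries belong to 1 condition and no result comes from a test. Low genes, 8517 as reported, numbered 5672 when classes were set by the mean of the libraries and 18521 when silent meant no count. Genes with a CV above 0.5, 1247 as reported, numbered 14747 without the count filter, 394 with a mean of at least 10 CPM, and 342 to 2655 with 1 library left out. Of the 25 genes highest per length, 16 were shared with the order by median transcript length and 14 with that without length correction. The CpG-rich share of expressed genes, 78% as reported, was 77.1% at a threshold of 0.5 CPM, 79.3% at 2 CPM and 84.7% when any annotated start could qualify, a setting chosen after seeing the data. The causes of these shifts were not tested beyond the settings themselves. Counts of some lists moved by over 1.5 times: WNT ligands had 12 expressed at 0.5 CPM and 10 by the mean, chemokines 4 and 5, and cytochromes P450 8 at 2 CPM. IFNE and KRTAP2-3 were not counted at 2 CPM. Depth limits silent calls to about 3 counts per library, and 1 sample set per library limits every spread.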

Other observations

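Ion and water channels were used sparsely. Of 95 potassium channel genes 26 (27.4%) were expressed and 47 (49.5%) silent, against 61.8% and 24.4% of all protein-coding genes. The calcium-activated KCNN4, known in gut epithelium, had 82.1, 107 and 69.9 CPM. Of 15 aquaporins AQP3 was expressed at 11.5, 14.8 and 12.6 CPM and AQP1 at 2.76, 3.52 and 2.14 CPM, and 9 were silent. Of 15 carbonic anhydrases 7 (46.7%) were expressed, among them CA11 at 36.6, 58.6 and 33.1 CPM. Toll-like receptors had 4 of 10 expressed, the flagellin receptor TLR5 at 2.54, 2.58 and 2.31 CPM and TLR6 at 5.55, 6.67 and 6.03 CPM, and TLR4, the lipopolysaccharide receptor, was silent. Bitter taste receptors TAS2R4, TAS2R14 and TAS2R20 were expressed between 1 and 2 CPM in the mean, and 19 of 27 taste receptors were silent.

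MAGE genes outside the A, B and C groups, which many tissues use, had 5 of 9 (55.6%) expressed, near the 61.8% of all protein-coding genes. MAGED1 had 139, 159 and 114 CPM and MAGEF1 56.7, 52.1 and 46.2 CPM. Tetraspanins, membrane organisers, had 16 of 22 (72.7%) expressed, not far from that share, with TSPAN3 at 141, 140.1 and 143 CPM. The haematopoietic factor GATA2 was expressed at 15.97, 17.3 and 20.8 CPM, while GATA1 had no count. Muscle, melanocyte and germ cell markers had 3 of 25 expressed, ZP3 of the egg coat at 9.05, 13.8 and 6.98 CPM among them. Of 28 actin, filament and myosin genes 17 (60.7%) were expressed, near the 61.8% of all protein-coding genes. The nonmuscle myosin gene MYH9 had 483, 387 and 539 CPM, its light chain MYL6 366, 326 and 321 CPM and the nuclear lamin LMNA 583, 549 and 581 CPM.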
